A study of Mus musculus with 2 samples.

Results

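The genes of the Wnt signalling pathway were examined in mouse embryonic midbrain. They were taken from the GENCODE M21 gene tables as the protein-coding genes whose symbols name a Wnt ligand, a Frizzled receptor, an R-spondin, a secreted inhibitor (Sfrp, Dkk, Wif1, Notum), the co-receptors Lrp5 and Lrp6, the ligand-processing proteins Porcn and Wls, beta-catenin (Ctnnb1), Axin1 and Axin2, Nkd1 and Nkd2, or the transcription factors Lef1, Tcf7 and Tcf7l1. This gave 55 genes of 22028 protein-coding and 55536 annotated genes in all. The rule uses names and no measured value, but it was chosen with earlier results of these data known.

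Both libraries held polyadenylated RNA of midbrains from healthy, unmanipulated B6NCrl embryos of both sexes, collected at 12.5 days of gestation. Replicate 1 pooled 120 embryos and replicate 2 pooled 88, and they form the only group, so there was no treated or mutant group to set them against. The annotated-gene counts summed to 29056772 in replicate 1 and 37122519 in replicate 2. The tissue label was set against 10 midbrain and isthmus markers, of which 9 reached 1 TPM (transcript abundance scaled for length and library depth) in both libraries. Otx2 stood at 144.56 and 140.91 TPM and Pax2 at 0.25 in both. None of 7 hindbrain markers reached 1 TPM in both libraries, and Hoxb4 was at 0 in both. Atoh1 (0.69 and 2.06) and Ptf1a (0.34 and 1.38) passed 1 TPM in replicate 2 alone. Of 8 telencephalon markers 7 reached 1 TPM in both libraries, with Lhx2 highest at 101.29 and 86.21. The marker lists thus do not establish that the tissue was free of neighbouring regions.

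Wnt proteins are lipid-modified secreted signals. Porcn attaches the lipid, Wls carries the ligand to the cell surface, and the ligand then binds a Frizzled receptor together with Lrp5 or Lrp6, which halts the destruction complex built around Axin and lets beta-catenin enter the nucleus and act with Lef1 and the Tcf factors. In the embryonic midbrain, Wnt1 at the dorsal midline and at the border with the hindbrain is required for the region to form, and Wnt5a acts in the ventral midbrain, where dopaminergic neurons arise. Axin2, Nkd1, Lef1 and Notum are also widely used as readouts of the pathway, since beta-catenin activates their transcription in many tissues.

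Most of the pathway was transcribed. At least 1 TPM in both libraries was reached by 43 of 55 genes, against 59.4% of all protein-coding genes. Their median level was 8.21 TPM, against 4.47 over all protein-coding genes. The summed TPM of the 55 genes took 0.196% of the protein-coding total in replicate 1 and 0.189% in replicate 2, and without Ctnnb1 it took 0.113% and 0.108%. In 7 genes the mean was 50 TPM or more, and in 23 it was 10 TPM or more. Below, paired levels are deposited TPM in replicate 1 and then replicate 2. Each value comes from a bulk tissue, in which fewer cells of a type and less RNA per cell cannot be told apart.

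**Figure D1:**
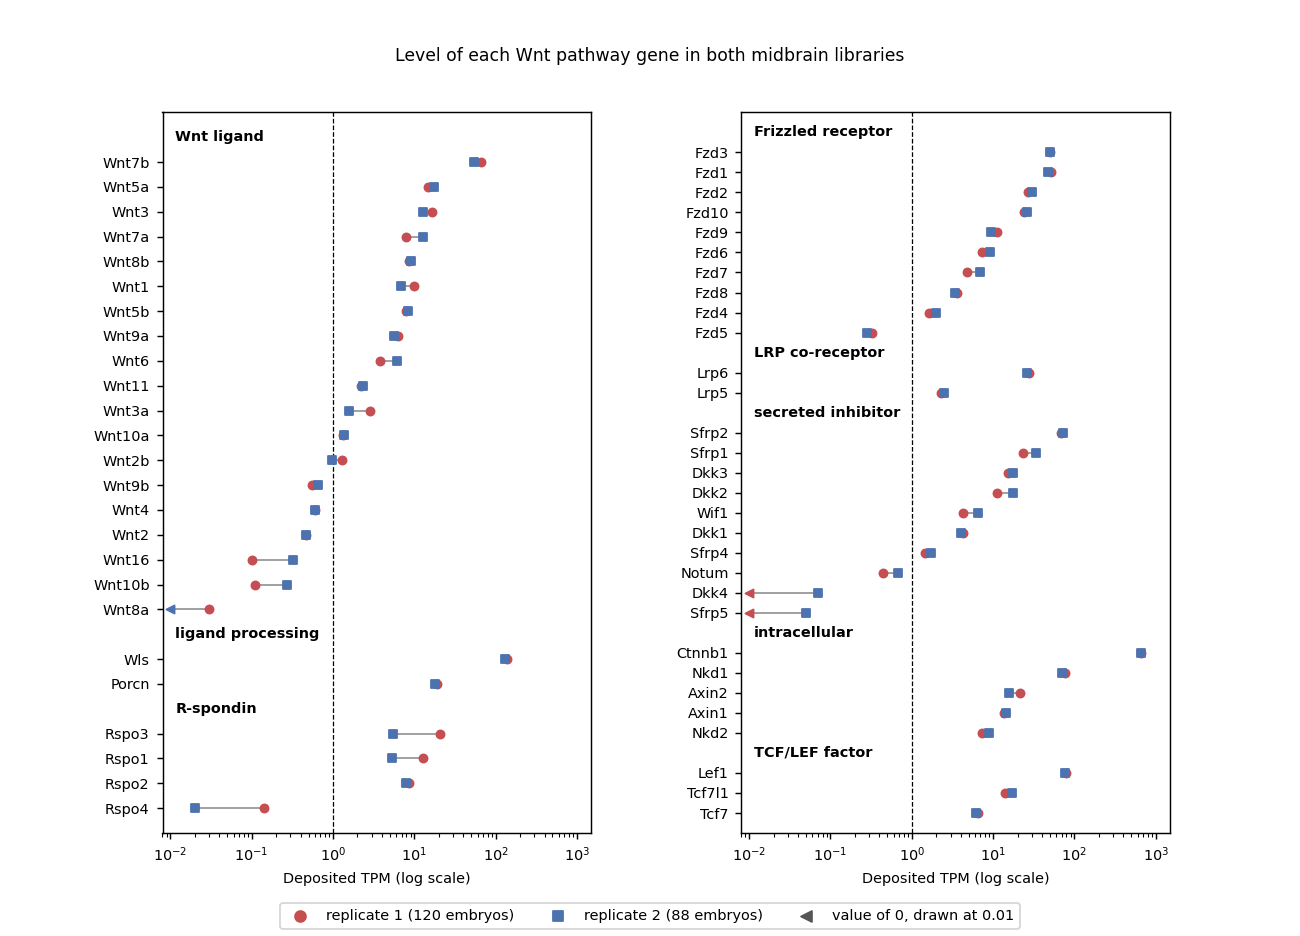
Deposited TPM on a log axis for all 55 genes, grouped by role, with circles for replicate 1 (120 embryos) and squares for replicate 2 (88 embryos); triangles stand for a value of 0, the dashed line is 1 TPM and grey lines join the libraries. Ctnnb1 is the highest at 666.88 and 664.36, and Rspo3 and Rspo1 show the widest gaps among genes above 5 TPM in both libraries.

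Among the 19 ligands, Wnt7b led by a wide margin. Wnt7b, a ligand of the canonical branch with roles in brain vessels and dendrites (ENSMUSG00000022382.15, chr15:85535437-85582473, minus strand, mm10), stood at 66.02 and 53.56 TPM. It made up 43.7% of the summed ligand TPM in replicate 1 and 37.8% in replicate 2 (40.8% ± 4.14, SD, n = 2). Its close relative Wnt7a was at 7.90 and 12.85, so that the ratio of Wnt7b to Wnt7a was 8.36 in replicate 1 and 4.17 in replicate 2.

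The next ligands were spread over a narrow range in which the order changed between libraries. Wnt5a, the main ligand of the beta-catenin-independent branch, was at 14.78 and 17.61 TPM, and its relative Wnt5b was at 7.96 and 8.33. Wnt3, a canonical ligand, was at 16.28 and 12.87, above Wnt5a in replicate 1 and below it in replicate 2. Wnt8b, a ligand of the dorsal forebrain midline, was at 8.62 and 9.09. Its coding model Wnt8b-201 was at 7.01 and 5.26, and the noncoding model Wnt8b-202 at 1.61 and 3.84. Wnt1, the ligand of the midbrain midline and isthmus, was at 10.01 and 6.81.

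Lower values were found for the remaining ligands above the limit. Wnt9a stood at 6.22 and 5.69 TPM and Wnt6, which is typical of surface epithelium, at 3.81 and 6.19. Wnt3a, which shares the dorsal midline with Wnt1, was at 2.86 and 1.56, and Wnt11, a ligand of the beta-catenin-independent branch, at 2.18 and 2.31. Wnt10a was at 1.33 and 1.38. Wnt2b, at 1.29 and 0.98, passed 1 TPM in replicate 1 alone. Wnt9b, Wnt4, Wnt2, Wnt16, Wnt10b and Wnt8a had means between 0.015 and 0.605 TPM. Wnt8a had 1 count in replicate 1 and none in replicate 2, where a count of 0 allows up to 3 counts.

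Several ligand genes lie side by side in the genome, and the neighbours were unequal in level. Wnt1 and Wnt10b lie head to head on chromosome 15 with 11.707 kb between them, and Wnt10b was at only 0.11 and 0.27 TPM (5 and 13 counts). Wnt3 and Wnt9b lie 24.329 kb apart on chromosome 11, also head to head, with a ratio of Wnt3 to Wnt9b of 29.6 and 19.5. Wnt9a and Wnt3a lie 16.176 kb apart on chromosome 11, and there Wnt9a exceeded Wnt3a by 2.17 and 3.65 times. Wnt6 and Wnt10a lie 6.194 kb apart in tandem on chromosome 1, and Wnt6 exceeded Wnt10a by 2.86 and 4.49 times. In each of the 4 pairs 1 gene was thus above its neighbour in both libraries.

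The genes that prepare ligands for export were well represented. Wls, the ligand carrier, stood at 136.66 and 131.96 TPM, second only to Ctnnb1 among the 55 genes. Porcn, the acyltransferase, was at 19.10 and 18.16. For both genes the values of the libraries lay close together.

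R-spondins are secreted proteins that bind Lgr receptors and keep Frizzled proteins at the cell surface. Rspo3 stood at 20.93 TPM in replicate 1 and 5.47 in replicate 2. Rspo1 stood at 12.69 and 5.38, and Rspo2 at 8.73 and 7.89. The summed level of the family was therefore 42.49 and 18.76 TPM, the most uneven of the 8 roles. Rspo3 was the highest R-spondin in replicate 1 and Rspo2 in replicate 2, where Rspo2 took 42.1% of the family total against 20.5% in replicate 1. Rspo4 had 6 and 1 counts.

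Of the 10 Frizzled receptors 9 reached 1 TPM in both libraries, and 2 of them stood apart from the rest. Fzd3, a receptor known for axon guidance and planar polarity, had a mean of 50.1 TPM (SD 0.191, n = 2), and Fzd1 was at 51.10 and 47.72, so their order differed between the libraries. Fzd2 was at 26.54 and 29.71, and Fzd10, a receptor of the dorsal neural tube, at 24.25 and 26.28. A middle group followed.

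Fzd9 was at 11.16 and 9.53 TPM, Fzd6 at 7.32 and 9.10, and Fzd7, a receptor of progenitors, at 4.82 and 6.83. Fzd8 was at 3.64 and 3.45. Fzd4, the receptor of brain endothelium for Norrin, was at 1.61 and 1.99, and Fzd5 was the only receptor below 1 TPM, at 0.32 and 0.28. Summed Frizzled TPM exceeded summed ligand TPM by 1.196 times in replicate 1 and 1.308 times in replicate 2. Of the co-receptors, Lrp6 was at 27.65 and 26.40 and Lrp5 at 2.30 and 2.51, which put Lrp6 at 12.02 and 10.52 times Lrp5.

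Secreted inhibitors caught by the name rule were about as abundant as the ligands. Their summed level was 127.7 TPM in replicate 1 and 154.62 in replicate 2, against 151.12 and 141.55 for the ligands. The ratio of inhibitors to ligands was thus 0.845 in replicate 1 and 1.09 in replicate 2 (0.969 ± 0.175, SD, n = 2), below 1 in one library and above it in the other. This ratio depends on the name rule. Frzb (5.97 and 4.82 TPM) and Draxin (12.85 and 13.13), counted below with receptor turnover and surface inhibition, are outside the inhibitor sum.

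Sfrp2, a decoy that resembles the Frizzled ligand-binding domain, led this group at 67.62 and 72.44 TPM and took 49.9% ± 4.31 of its summed TPM (SD, n = 2). Sfrp1 was at 23.05 and 34.14. Dkk3, a divergent Dickkopf protein, was at 15.39 and 17.60, and Dkk2, which binds Lrp5 and Lrp6, at 11.21 and 17.43. The remaining inhibitors were lower.

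Wif1, which binds Wnt proteins directly, was at 4.32 and 6.45 TPM. Dkk1, the classical Lrp6 antagonist, was at 4.21 and 4.04, and Sfrp4 was at 1.46 and 1.72. Notum, an extracellular enzyme that removes the Wnt lipid, was at 0.44 and 0.68, below 1 TPM in both. Dkk4 and Sfrp5 had no counts in replicate 1 and 2 counts each in replicate 2.

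Inside the cell Ctnnb1 stood far above all other members. Ctnnb1 (ENSMUSG00000006932.17, chr9:120929216-120960507, plus strand, mm10) was at 666.88 and 664.36 TPM, a level above 99.5% of protein-coding genes. Its protein also acts at cell junctions. Nkd1, a feedback inhibitor that binds Dishevelled, was at 76.74 and 71.00, and Nkd2 at 7.31 and 8.81.

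Axin2, the feedback scaffold of the destruction complex, was at 21.43 and 15.50 TPM, while Axin1, its constitutive relative, was at 13.44 and 14.23. Axin2 was thus above Axin1 in both libraries, and the gap was wider in replicate 1. Of the transcription factors, Lef1 was at 78.71 and 76.07 and took 78.0% ± 1.82 of the summed level of the 3 (SD, n = 2). Tcf7l1, mostly a repressor, was at 13.93 and 16.98, and Tcf7 at 6.61 and 6.08. Of the genes used as readouts, Nkd1, Lef1 and Axin2 were detected and Notum was not, and the rule does not separate targets from other members.

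The pools were then compared with each other. Counts were scaled by TMM, and the log2 ratio of replicate 1 over replicate 2 was given an exact 95% interval that covers counting error only. With 1 library from each pool there is no replicate check and no p-value. At least 10 counts in a library were found for 50 of 55 genes, and Wnt16, Wnt8a, Rspo4, Dkk4 and Sfrp5 were left out. Scaling by the ERCC control RNAs in place of TMM moved all log2 ratios by -0.27, after which 10 members lay above 0 where 27 did with TMM, so ratios that exceed 0 by less than that, such as those of Rspo2, Nkd1 and Fzd9, change direction under ERCC scaling. With DESeq2 size factors and with totals 27 members lay above 0 as well.

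Few members differed 2-fold between the pools, and those were R-spondins. A difference of 2-fold or more with an interval excluding equality was seen in 2 of 50 genes, against 2.74% of protein-coding genes and 4.23% of all annotated genes. Rspo3 (ENSMUSG00000019880.10, chr10:29452416-29535867, minus strand) had 1157 and 385 counts, a log2 ratio of 1.95 (1.78 to 2.12), which is 3.87-fold. Rspo1 (ENSMUSG00000028871.7, chr4:124986430-125009099, plus strand) had 411 and 220 counts, a log2 ratio of 1.27 (1.03 to 1.51), which is 2.40-fold. Rspo2 had 503 and 569 counts and a log2 ratio of 0.19 (0.01 to 0.36), so the 3 tested R-spondins were all higher in replicate 1 under TMM, by unequal amounts, while Rspo2 turns under ERCC scaling. With ERCC totals Rspo1 was just under 2-fold, at 0.995.

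At a log2 ratio of at least 0.5, 4 members were higher in replicate 1, against 2.29% of protein-coding genes, and 4 were higher in replicate 2, against 4.21%. With Rspo3 and Rspo1, the first set held the midline ligands Wnt3a, with 142 and 98 counts and a log2 ratio of 0.90 (0.52 to 1.28), and Wnt1, with 426 and 366 counts and 0.58 (0.38 to 0.79). The second set held Wnt6, with 139 and 281 counts and -0.65 (-0.96 to -0.35), and the inhibitors Dkk2, Wif1 and Sfrp1. Dkk2 had a log2 ratio of -0.61 (-0.74 to -0.48), Wif1 of -0.55 (-0.82 to -0.29) and Sfrp1 of -0.54 (-0.62 to -0.46). All 8 encode secreted proteins, and none of the 22 tested receptors, co-receptors and intracellular, nuclear or ligand-processing members passed this limit, against 8 of 28 tested secreted members. Whether secreted members differ more often than the others was not tested. With ERCC totals 3 members passed in the direction of replicate 1 (without Wnt1) and 9 in that of replicate 2, among them Tcf7l1, Fzd7, Fzd4 and Nkd2, so receptors and intracellular genes passed under that scaling. DESeq2 size factors and scaling by totals gave the same 4 and 4 genes as TMM.

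**Figure D2:**
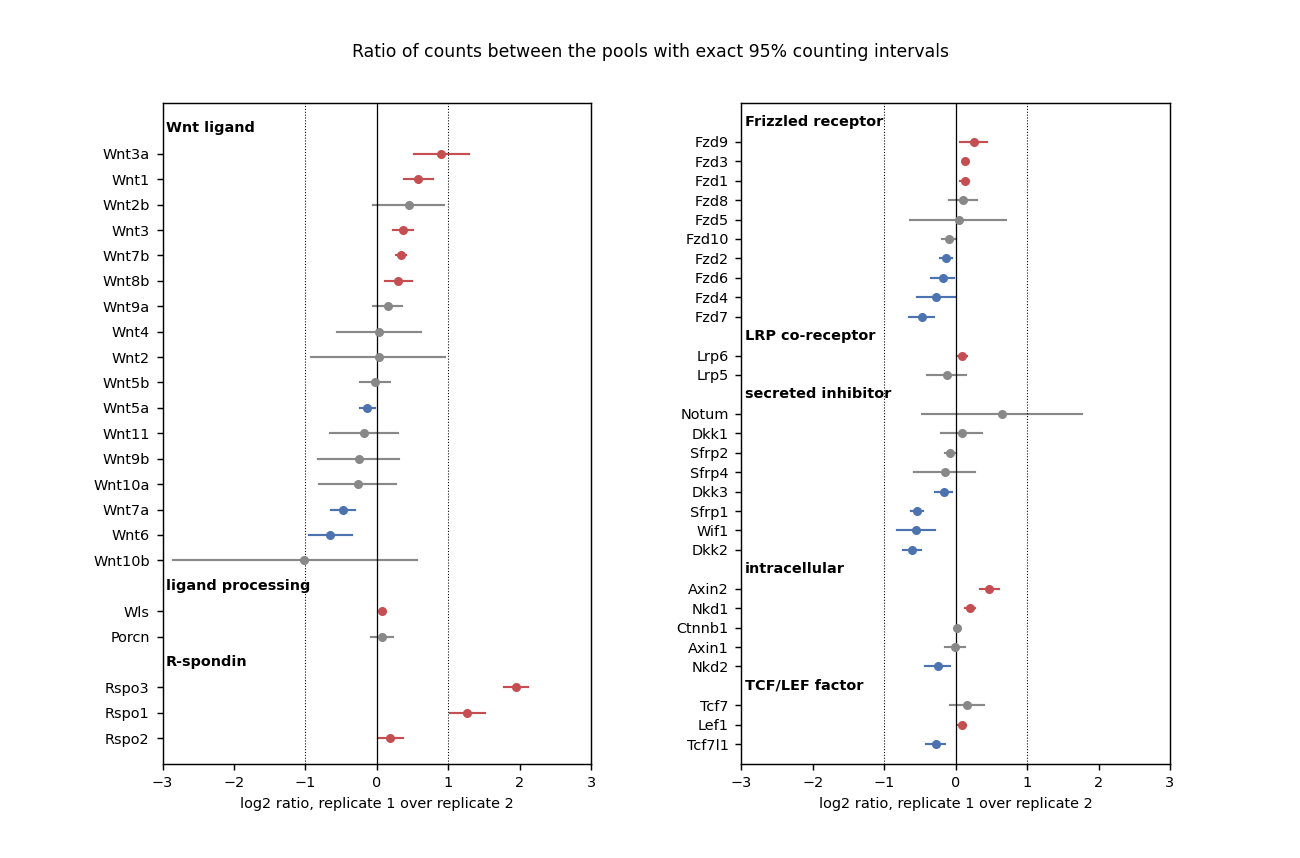
Log2 ratio of counts in replicate 1 over replicate 2 with exact 95% counting intervals for the 50 tested genes, sorted within each role; red intervals lie above 0, blue intervals below 0 and grey intervals span 0, and dotted lines mark a 2-fold ratio. Rspo3 and Rspo1 are the only genes whose points lie beyond the 2-fold line with intervals clear of 0, and Wnt10b lies at -1.02 with an interval that spans 0.

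Smaller differences beyond counting error were common. The interval lay above equality in 16 of the 50 members, against 17.6% of protein-coding genes, and below it in 13, against 18.9%. In 21 members it included equality. Intervals narrow with depth, and the members lie above the median level of coding genes, so these shares are not on an equal footing. The median log2 ratio of the members was 0.03, against -0.01 over all tested protein-coding genes.

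The highest genes of the roles other than the R-spondins, for which Rspo3 is given above, had small ratios. Wnt7b, with 3833 and 3906 counts, had a log2 ratio of 0.34 (0.27 to 0.40), Wls of 0.07 (0.03 to 0.12) and Fzd3 of 0.13 (0.10 to 0.17). Lrp6 had 0.09 (0.02 to 0.16) and Lef1 0.08 (0.03 to 0.14), and Wls, Fzd3, Lrp6 and Lef1 all turn under ERCC scaling. For Sfrp2 the interval included equality, at -0.075 (-0.152 to 0.002), as it did for Ctnnb1, at 0.018 (-0.003 to 0.039). Under ERCC scaling both were below equality, Sfrp2 at -0.345 (-0.421 to -0.268) and Ctnnb1 at -0.252 (-0.273 to -0.231), and with M4 Ctnnb1 was above it, at 0.026 (0.006 to 0.046).

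Some paralogs lay on opposite sides of equality under TMM, but Nkd1 and Lef1 turn under ERCC scaling, which leaves Wnt7a and Wnt7b as the opposite pair described here. Wnt7a was lower in replicate 1, at -0.47 (-0.64 to -0.30), where Wnt7b was higher. Under ERCC scaling Wnt7b was barely above equality, at 0.067 (0.002 to 0.131). Axin2 was higher in replicate 1, at 0.47 (0.34 to 0.60), while Axin1 was at -0.004 (-0.143 to 0.134). Nkd1 was at 0.21 (0.14 to 0.28) and Nkd2 at -0.25 (-0.42 to -0.08), and Tcf7l1 was at -0.28 (-0.42 to -0.14) beside Lef1 above 0. Fzd7 had the lowest ratio of the receptors, at -0.48 (-0.66 to -0.30), and Fzd9 the highest, at 0.25 (0.07 to 0.44).

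The promoters of the members that were higher in replicate 1 were read to see whether they share letters known from the pathway. RefSeq windows (GRCm38.p6, the same assembly as mm10) were matched by symbol for 36 of 55 members, with 44 windows. The 250 bases before each start were searched on both strands for CTTTG followed by 2 bases that are each A or T, the core that TCF and LEF proteins prefer, and no other motif was searched. Of the 4 members higher by this measure, Rspo1, Wnt1 and Wnt3a have a window and Rspo3 has no entry. Their windows are printed in lower case because none of these letters occurred in them, so no base is in capitals.
Rspo1 (chr4:124986180-124986429, plus strand): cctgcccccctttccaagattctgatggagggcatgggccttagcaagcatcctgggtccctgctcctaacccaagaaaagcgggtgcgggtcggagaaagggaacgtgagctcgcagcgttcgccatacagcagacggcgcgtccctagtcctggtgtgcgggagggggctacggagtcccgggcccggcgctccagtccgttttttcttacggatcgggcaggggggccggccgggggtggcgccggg
Wnt1 (chr15:98789607-98789856, plus strand): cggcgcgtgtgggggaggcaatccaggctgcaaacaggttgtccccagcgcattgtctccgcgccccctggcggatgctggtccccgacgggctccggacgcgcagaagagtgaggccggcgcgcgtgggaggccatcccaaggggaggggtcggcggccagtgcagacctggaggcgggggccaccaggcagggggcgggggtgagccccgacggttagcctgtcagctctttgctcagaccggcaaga
Wnt3a (chr11:59290752-59291001, minus strand): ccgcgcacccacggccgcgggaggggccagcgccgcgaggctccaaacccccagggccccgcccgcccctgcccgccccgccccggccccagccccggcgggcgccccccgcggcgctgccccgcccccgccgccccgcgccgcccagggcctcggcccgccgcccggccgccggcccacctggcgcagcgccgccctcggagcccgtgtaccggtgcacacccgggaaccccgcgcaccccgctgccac

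What the windows share is a high content of G and C. The share of G and C was 66.8% for Rspo1, 71.6% for Wnt1 and 87.6% for Wnt3a, with 22, 23 and 41 CpG pairs. Over the 44 member windows the median was 66.8% with 21.5 CpG pairs, against 52.4% and 6 over all 32851 windows, so the Wnt3a window stood above its own family too.

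A match was present in 5 of 44 member windows (11.4%), against 14.8% of all windows of that length. These were windows of Fzd7, Wnt11, Dkk1 and of alternative starts of Lef1 and Wnt5b. Dkk1 alone had 2 matches, which begin 117 and 98 bases before its start, shown here in capitals within 30 bases because it was the only member with more than 1. The start is that of RefSeq; in M21 the gene begins at 30549665 on the minus strand, so by that annotation the stretch lies inside Dkk1, after its start.
Dkk1 (chr19:30549586-30549615, minus strand): agCTTTGAAatcccatcccggCTTTGTTgt
The Dkk1 level was alike in both pools, with a log2 ratio of 0.09 (-0.21 to 0.37), and the window of Axin2 held none of the searched letters. A match is a description of letters, and the lack of one says nothing of the factor.

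Genes of the pathway outside the member list were taken from 6 lists. Of these 62 genes 58 reached 1 TPM in both libraries and none differed 2-fold between the pools, against 2.74% of protein-coding genes. At a log2 ratio of at least 0.5, 4 were higher in replicate 1, against 2.29% of protein-coding genes, and none in replicate 2, against 4.21%. Under ERCC scaling none was higher in replicate 1 by this limit and 7 were higher in replicate 2 (Ror1, Ror2, Reck, Adgra2, Shisa2, Tle2 and Prickle1), so the balance depends on the scaling. The 4 under TMM were Tcf7l2, a TCF factor of the thalamus and midbrain and the highest of the nuclear partners (421.29 and 269.11 TPM, log2 ratio 0.68, 0.65 to 0.71), the surface inhibitors Apcdd1 (14.16 and 9.13, 0.55) and Tpbg (41.21 and 31.01, 0.52), and the R-spondin receptor Lgr5 (2.93 and 2.56, 0.51). Tcf7l2 stood well above the TCF and LEF genes among the members, of which Lef1 was the highest at 78.71 and 76.07.

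The lists by role ran as follows. Of 10 alternative receptors and co-receptors 9 were detected, with Ptk7, a polarity co-receptor, highest at 43.58 and 49.71 TPM and Lgr6 lowest at 0.21 and 0.52. The 3 Lgr receptors of R-spondins were led by Lgr4, at 11.47 and 13.20. Of 10 genes of receptor turnover and surface inhibition 8 were detected, with Tpbg highest and the ubiquitin ligase Rnf43 lowest at 0.71 and 1.16. All 9 planar polarity genes were detected, from Celsr1 at 3.11 and 2.63 to Celsr2 at 59.70 and 57.47.

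Of 16 transducers and destruction complex genes 15 were detected, with the kinase gene Csnk1a1 highest at 221.75 and 244.60 TPM and Dact2 lowest at 0.46 and 0.67. All 11 nuclear partners were detected, with Bcl9l lowest at 7.95 and 7.96. All 6 commonly used target genes were detected, from Cd44 at 2.32 and 2.39 to Ccnd1, the cyclin of G1 phase, at 198.05 and 226.25. Sp5, a direct target in many tissues, was at 18.98 and 14.05 with a log2 ratio of 0.46 (0.31 to 0.62), close to the value of Axin2.

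Markers of neighbouring regions and of other tissues differed between the pools together with these genes. All marker ratios and calls here are under TMM, and ERCC scaling moves each log2 ratio by -0.27. Of 8 telencephalon markers 7 were detected, with summed levels of 195.21 and 149.87 TPM and a median log2 ratio of 0.55. Beyond counting error 7 of 8 were higher in replicate 1, against 17.6% of protein-coding genes. Of 8 diencephalon markers 7 were detected, with sums of 123.18 and 66.09 and a median of 0.33 over the 7 tested. Olig3, a factor of the thalamic progenitor zone and dorsal neural tube, had the largest ratio among them, 2.55 (2.39 to 2.71), with 49.97 and 8.71 TPM, in the same direction as Rspo3. The part of these regions in the ratios of Rspo3, Rspo1, Wnt3a and Wnt1 was not tested.

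The opposite direction was seen in ventral, caudal and mesenchymal markers. All 7 floor plate markers were detected, with sums of 58.95 and 84.55 TPM and a median log2 ratio of -0.87. The midbrain and isthmus list summed to 249.52 and 296.4 with a median of -0.44. All 10 markers of meninges and mesenchyme were detected, with sums of 1036.33 and 1467.63 and a median of -0.40. Beyond counting error 9 of 10 were lower in replicate 1, against 18.9% of protein-coding genes. Of 6 surface epithelium markers 5 were detected, with sums of 22.45 and 27.36 and a median of -0.39.

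Of 5 cartilage markers 3 were detected, with sums of 115.1 and 182.34 TPM and a median of -1.49, and Matn1 was at 0 in replicate 1. The 7 roof plate markers, a zone that holds Wnt1 and Wnt3a, summed to 126.74 and 149.04 with a median of -0.09, and 6 of 7 were detected. That median covers a split, with 1 marker above and 3 below equality, against 17.6% and 18.9% of protein-coding genes. Zic1 was at 0.56 (0.44 to 0.67), and Msx2 at -0.62, Lmx1a at -0.34 and Msx1 at -0.21. The part of these tissues in the lower ratios of Wnt6, Dkk2, Wif1 and Sfrp1 was not tested either. Progenitor and neuron markers had medians of 0.05 and 0.12, and all 10 of each were detected, with sums of 2747.33 and 2723.83 and of 2140.43 and 2062.47. Both medians exceed 0 by less than the ERCC shift, so they fall below 0 under that scaling. Single markers in these lists differed in both directions: 5 progenitor markers were above and 2 below equality, and 7 neuron markers above and 2 below. Over all protein-coding genes the shares were 17.6% above and 18.9% below. Intervals narrow with depth, so ratios as small as that of Tubb3, 0.06 (0.04 to 0.08), are counted here. Pax6, a progenitor factor of the forebrain and dorsal neural tube named here after its value was seen, was at 57.16 and 16.88 TPM, a log2 ratio of 1.75 (1.63 to 1.86), in the direction of Rspo3.

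Endothelial, pericyte, microglial and erythroid markers were all detected (7, 5, 5 and 5 genes), with median log2 ratios from -0.20 to -0.15. Their sums were 91.76 and 101.5 TPM for endothelium, 29.85 and 35.07 for pericytes, 40.39 and 46.03 for microglia, and 7562.43 and 8578.15 for erythroid cells. The hindbrain list summed to 1.56 and 3.86. In it Atoh1 had a log2 ratio of -1.55 (-2.23 to -0.91) on 26 and 98 counts. Ptf1a had -1.99 (-3.21 to -0.94) on 9 and 46 counts. No defining marker other than Hoxb4 was at 0 in both libraries.

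**Figure D3:**
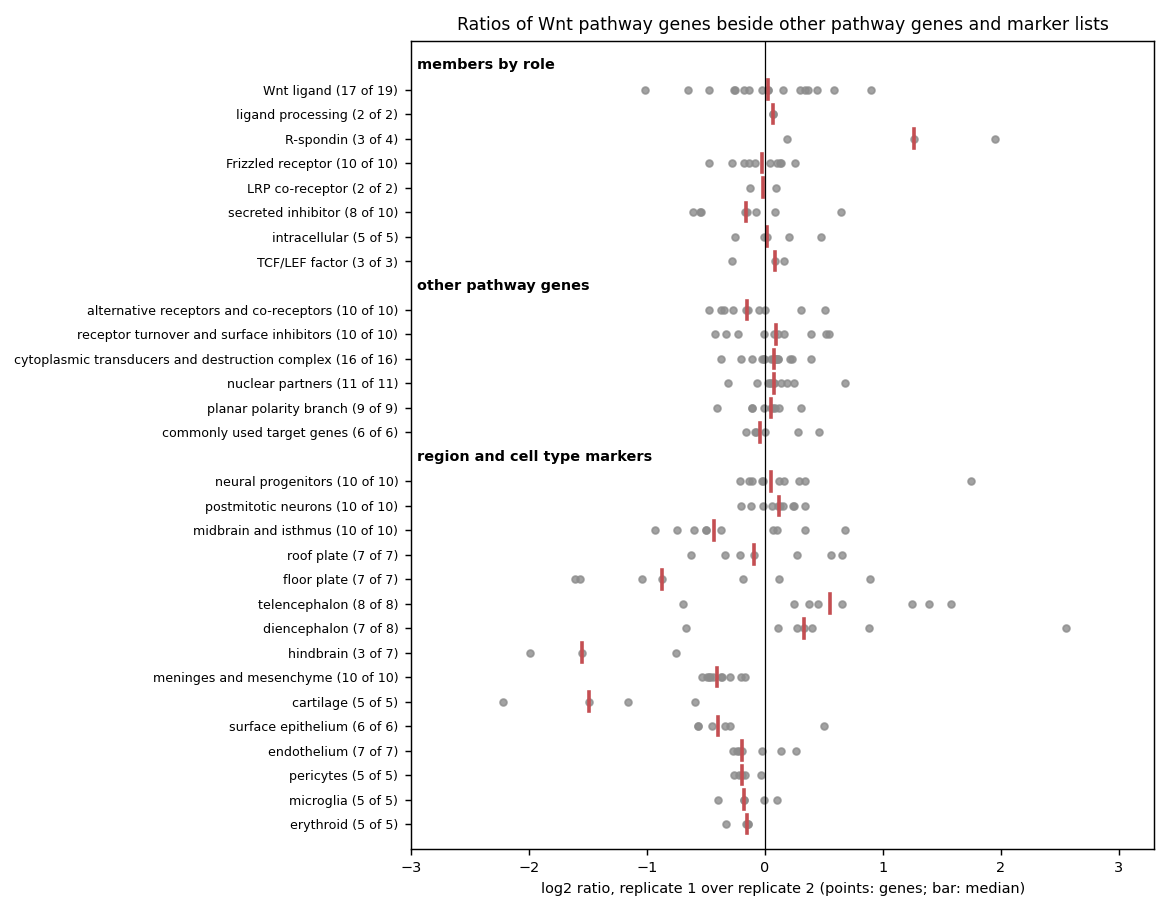
Log2 ratio of replicate 1 over replicate 2 for single genes (grey points) and the median (red bar) of each role of the 55 genes, of 6 lists of other pathway genes and of 15 marker lists, with the number of tested genes of each list in brackets; Matn1, at 0 in replicate 1, has no finite ratio and is not drawn. The R-spondin bar lies at 1.27 on the same side as telencephalon and diencephalon, and the floor plate, cartilage and mesenchyme bars lie on the other side. Ratios are scaled by TMM, and ERCC scaling moves every point and bar by -0.27.

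The transcript tables showed which models carried the levels of the members. Of the 43 detected members 14 have a single annotated transcript, and in 24 the highest transcript took at least 90% of the gene's TPM. The median share of the highest transcript was 92.9%. At a mean of 5 TPM or more, 10 of 35 members had a highest transcript with less than 60%. Short reads are divided among overlapping models by estimation, so these shares are estimates, and they were close between libraries for most of the 10.

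Lef1 was divided between forms with different ends. Lef1-204, with 10 exons, took 57.1% in replicate 1 and 58.4% in replicate 2, and Lef1-202, with 11 exons, took 31.2% and 26.3%. Lef1-202 carries an additional exon of 41 bases near the 3′ end, whose first 32 bases code and are followed by a stop codon. The ends are shown because they give the protein a different last stretch: lower case is the last 15 bases of the shared exon, and capitals are the bases that follow in each form.
Lef1-202 (capitals chr3:131204933-131204967, plus strand): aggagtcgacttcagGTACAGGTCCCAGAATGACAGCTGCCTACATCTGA
Lef1-204 (capitals chr3:131223076-131223110, plus strand): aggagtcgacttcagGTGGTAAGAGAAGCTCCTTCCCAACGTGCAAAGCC
Before this point the forms are identical base for base. The retained-intron model Lef1-206 took 7.21% and 7.75%.

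Wnt7b was the only detected member whose highest transcript differed between libraries. Wnt7b-201 took 46.3% and 48.6%, and Wnt7b-202 took 48.0% and 42.7%. The models differ in their first exon and in 4 bases at the end of exon 2, which are in capitals where present; the rest is 15 bases on each side of the junction with exon 3, in the coding part.
Wnt7b-201 (exon 2 end chr15:85558907-85558921, minus strand): gggcaagaactccgaggagtcgagaggctg
Wnt7b-202 (exon 2 end chr15:85558903-85558921, minus strand): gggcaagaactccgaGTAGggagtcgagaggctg
So the estimated TPM of the ligand with the highest level was near evenly split between these models. A difference of 4 bases is not a whole number of codons, so the reading frames can differ after it. The frames and the proteins of these models were not compared. Below the detection limit the highest transcript differed too for Wnt16, on 3 and 6 counts, and for Notum, on 17 and 14 counts. Tcf7l1 was carried mainly by Tcf7l1-201, at 89.7% and 91.99%.

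Wls held the largest share of a transcript annotated for nonsense-mediated decay. Wls-201, the protein-coding form with 12 exons, took 39.6% and 41.4%, Wls-206 took 30.1% and 29.7%, and Wls-205 took 18.32% and 14.99%. Wls-206 has an additional exon of 81 bases after exon 1, which brings a stop codon after 5 bases, in capitals below after the last 15 bases of exon 1.
Wls-206 (exon 2 bases chr3:159848565-159848572, plus strand): tgggaggcttgatcggaggcTAA
Protein-coding models together took 57.1% of the Wls level, the lowest share among the 10 members.

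Other members were divided among coding and noncoding models. Porcn-201 took 55.4% and 57.2%, the retained-intron model Porcn-206 21.2% and 19.2%, and Porcn-205, annotated for nonsense-mediated decay, 16.83% and 18.98%. Lrp6-201 took 55.3% and 54.9%, beside 27.8% and 32.6% for Lrp6-205, a single-exon retained-intron model of 941 bases. Axin2-201 took 47.0% and 49.3%, and 3 shorter models took most of the rest.

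Some members were split mainly among coding models. Nkd2-201 took 58.3% and 59.7%, with 39.8% and 38.9% for Nkd2-202. Wnt5a-201 took 46.4% and 41.2%, with 37.8% and 40.5% for Wnt5a-202. Fzd6-201 took 50.3% and 62.3%, and Fzd6-202 46.7% and 27.9%, the widest change between libraries among the 10.

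Ctnnb1 falls outside that limit but carries the most reads. Ctnnb1-201, the full coding form with 15 exons, took 62.6% and 63.7%, and Ctnnb1-215, a single-exon retained-intron model of 1292 bases at the 3′ end of the gene, took 30.5% and 30.3%. The coding form alone stood at 417.65 and 423.16 TPM, still the highest value of any member's transcript.

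**Figure D4:**
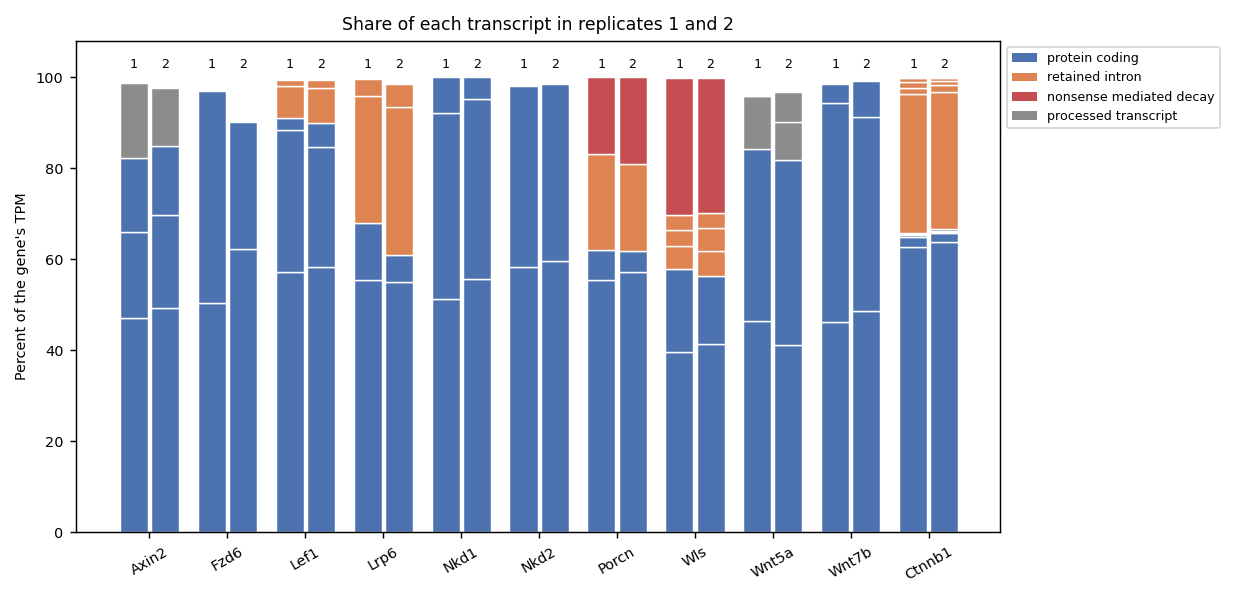
Stacked percent of each gene's TPM by transcript in replicates 1 and 2 (numbers over the bars) for the 10 members with a divided level and Ctnnb1, coloured by transcript type; transcripts with a mean under 0.5 TPM are not drawn, so bars can end below 100. Wls shows the largest nonsense-mediated decay share at 30.1% and 29.7%, and Ctnnb1 and Lrp6 the largest retained-intron shares.

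The choice of annotation moved the level of a few members. The same libraries were also deposited with the older M4 annotation, and 8 of 55 members differed by over 1.2 times between annotations, 2 of them by over 1.5 times. Nkd1 had a mean of 73.9 TPM with M21 and 40.1 with M4, while its counts were nearly equal (3177 against 3180 in replicate 1). Nkd1-203, a model with 7 exons that starts inside the gene, is in M21 and not in M4, and it took 51.3% and 55.7% of Nkd1.

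Fzd3 moved the other way, with a mean of 50.1 TPM with M21 and 76.6 with M4. It had 11795 counts with M21 and 5561 with M4 in replicate 1, and no transcript of it was unique to either annotation, while the lengths of its models in the annotations were not compared. Lrp6 was at 27.0 with M21 and 18.4 with M4, and its 3 models unique to M21 took 35.1% on average. For Wls, at 134 and 111, the 6 models unique to M21 took 59.5%, and with M4 it has a single model.

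Rspo3 stood at 13.2 TPM with M21 and 17.8 with M4, and its ratio between pools was the same with both annotations, 1.95. Wnt8b, Fzd8 and Fzd4 were the others, with means of 8.86 and 7.10, of 3.54 and 4.99, and of 1.80 and 2.19. For Wnt8b the direction between pools depends on the measure. Its M21 TPM was lower in replicate 1, but with M4 it was at 7.77 and 6.43. By M21 counts under TMM its log2 ratio was 0.30 (0.11 to 0.49), which ERCC scaling moves by -0.27. The noncoding Wnt8b-202, which M4 lacks, took 18.66% and 42.18%. With M4, Fzd3 was the highest of the Frizzled genes by a clear margin, where with M21 it was level with Fzd1.

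Overlapping genes limit some values, since no source used here states whether counting used the strand. A gene on the opposite strand overlaps 21 of the 55 members, and in 7 of them it had at least 10 counts in a library. Among these 7 the largest relative count was in Fbxl14 beside Wnt5b (163 and 218 counts), which equals 49.5% of the Wnt5b count. Gm43352 had 9.72% of the count of Lef1 and Ulk4 6.66% of that of Ctnnb1. These percentages use the whole count of the partner, not the reads in the overlap, so they do not bound the error. Without a strand, reads in the overlaps cannot be told apart, and the levels of Wnt5b, Lef1 and Ctnnb1 are uncertain by an unknown amount.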

How the data were processed

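RNA of 2 pools of mouse midbrain was reverse transcribed from 10 ng with oligo-dT priming, spiked with ERCC control RNAs and fragmented by tagmentation, per the labels. Gene and transcript tables against GENCODE M21 and M4 (mm10) hold, per the file headers, an expected count (an estimated read number), a TPM and an FPKM for each gene, and the percent of a gene's TPM for each transcript. The aligner, the counting tool and the strand setting are not given in the sources used here. Rows that are no annotated gene, nearly all of them ERCC, took 4.02% and 3.38% of deposited expected counts and stayed out of scaling. Symbols and coordinates came from GENCODE M21.

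Levels are the deposited TPM values. For ratios, expected counts were rounded to whole numbers and scaled by TMM (edgeR 4.0.16, R 4.3.3), with exact conditional binomial 95% intervals (Clopper-Pearson, scipy 1.17.1) for genes reaching 10 counts in either library. No test across pools was possible with 1 library each, and the labels do not tell separate litters apart. The computation was checked on counts simulated with counting error alone and with the same scaling that the intervals assume. That check says nothing of variation between pools or of errors in scaling. Intervals, and the limit of 3 counts for a count of 0, cover counting error only, because reads without molecular identifiers are not independent molecules.

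The members, gene lists and limits were chosen with earlier results of these data known. Values in both libraries are given for members with a mean of at least 1 TPM, ratios for the highest member of each role and for those at a log2 ratio of 0.5 or more, and transcript shares for members at 5 TPM or more with a highest transcript below 60%. Axin2, Pax6, paralog pairs and other genes whose ratios are printed beyond that rule were chosen after their values were seen. Alternatives were DESeq2 size factors (1.42.0), ERCC or total scaling, other count and level limits, FPKM, M4, and leaving out a library.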

Additional observations from a re-analysis of the deposited data

How the results depend on the processing

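The number of detected members ran from 32 (a limit of 5 TPM) to 46 (a limit of 0.5 TPM), with 39 from FPKM and 43 to 44 when either library was left out. The median level was 5.05 in FPKM units, 10.4 TPM among the detected members alone, and 6.83 to 7.90 TPM with either library left out. The ratio of inhibitors to ligands was 1.01 with M4 and 0.986 among detected members; FPKM gives the TPM ratio by construction, and leaving out a library returns the value of the other, 0.845 to 1.09. The count of members different by 2-fold was 1 with ERCC totals and 5 at a 1.5-fold limit, and 2 in the other 6 alternatives. The median log2 ratio was -0.24 with ERCC totals, a scaling that moved the median of all coding genes by -0.27, and -0.03 from TPM ratios. Under ERCC totals 4 named members reversed: Wls at -0.20, Fzd3 at -0.14, Lrp6 at -0.18 and Lef1 at -0.19, all of which lie above the shifted median of coding genes, -0.28. Ctnnb1 and Sfrp2, whose intervals included equality under TMM, were below it under ERCC totals (-0.25 and -0.34), Ctnnb1 was above it with M4 (0.03), and the other 10 of 16 named members kept their direction and call under ERCC totals. None of the 16 reversed with DESeq2 size factors or M4. The median share of the highest transcript was 100% with M4, and 92.1% to 98.5% with either library left out; the cause was not tested. No paired analysis was possible because there is a single group of 2 libraries. Ratios between the libraries cannot be recomputed with a library left out. Depth limits the ratios of members below about 100 counts, such as Wnt10b and Notum, whose intervals span more than a 2-fold change. The scaling alternatives for the other pathway genes were added after seeing the data.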
